A study of Mus musculus with 6 samples.

Results

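The globin genes of the tibia were examined in 3 Atrx-cKO and 3 control libraries by taking the rows of the count files that GENCODE M21 names as alpha or beta globin genes or as the alpha globin chaperone gene. Of the 10 genes sought among 55401 gene identifiers, 9 were matched, 5 in the alpha cluster and 4 in the beta cluster. The chaperone gene *Ahsp* is not analysed here. Each library was made from polyadenylated RNA of the tibia of a male mouse at 8 weeks of age. Atrx-cKO mice were Osterix-Cre; Atrxf/y and control mice were Atrxf/y, so all 6 mice carried the floxed *Atrx* allele and only Atrx-cKO mice carried the transgene. Osterix (*Sp7*) drives Cre in preosteoblasts, doxycycline kept Cre off until 3 weeks of age, and the whole bone was pulverized, whereas globin RNA comes from the erythroid cells of the marrow. The effect of the transgene and that of the deletion cannot be told apart in this design. The question asked was whether globin transcripts, or the balance of alpha to beta, differed between the genotypes.

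Hemoglobin is a tetramer of alpha-type and beta-type globin chains, each holding a heme group, and red cell precursors of the marrow must make both types in near balance because unpaired chains are unstable. Each type is encoded by a cluster of genes that are used in turn during development, embryonic genes giving way to adult ones. ATRX is a chromatin remodeling protein, and people born with *ATRX* mutations can have alpha thalassemia, in which alpha chains are short relative to beta chains.

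In the mouse reference genome the adult alpha genes are *Hba-a1* and *Hba-a2*, and the adult beta genes are *Hbb-bs* and *Hbb-bt*. The alpha cluster lies on the plus strand of chromosome 11 of GRCm38 and the beta cluster on the minus strand of chromosome 7. Within each adult pair the coding sequences were nearly the same, at 99.77% identity, and differed at 1 base. These bases are shown because no other base tells apart reads that lie wholly in the coding sequence. A part outside the coding sequence, or the mate of a read, may also place it. Counted from the A of the start codon, the alpha pair differed by C381T, with the base of *Hba-a1* first, and the beta pair by C417T, with the base of *Hbb-bs* first. The stretches are given 5′ to 3′ on the coding strand from the GENCODE M21 transcripts, with the differing base in capitals, and lie in the last exon of each gene, at chr11:32284313-32284373 (*Hba-a1*), chr11:32297130-32297190 (*Hba-a2*), chr7:103826665-103826722 (*Hbb-bs*) and chr7:103812656-103812713 (*Hbb-bt*).
Hba-a1: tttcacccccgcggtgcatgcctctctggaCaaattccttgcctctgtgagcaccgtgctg
Hba-a2: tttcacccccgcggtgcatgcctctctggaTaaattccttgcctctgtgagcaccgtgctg
Hbb-bs: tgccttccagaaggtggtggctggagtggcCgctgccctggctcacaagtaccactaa
Hbb-bt: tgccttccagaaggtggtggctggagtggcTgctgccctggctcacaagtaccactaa

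The likeness matters for the counts because reads with no unique alignment, 3.69% to 4.56% of each file, were not assigned to genes. Their share was 4.56%, 4.04% and 4.12% in Atrx-cKO replicates 1, 2 and 3 and 4.42%, 3.69% and 3.84% in the controls. It was lowest in control replicate 2, the library with the least adult globin RNA, so undercounting may also differ between libraries. How many of these reads came from globin genes was not tested. Of the 150-base windows of the main *Hba-a1* transcript, 22.4% occurred in no other gene's transcript, nor in the upstream sequence of another member joined to its transcript, and the rest were shared with *Hba-a2*. For *Hba-a2* the share found in no other gene was 34.3%, for *Hbb-bs* 41.3% and for *Hbb-bt* 49.3%. The theta-like genes *Hbq1a* and *Hbq1b* were 93.84% identical in coding sequence, with 84.0% and 82.3% of windows their own. The embryonic genes *Hba-x*, *Hbb-bh1* and *Hbb-y* shared no window with another gene. Counts within a near-identical pair are therefore uncertain, and the 4 adult genes may be undercounted to different degrees. The balance of alpha to beta was therefore taken from sums over a pair, with single genes only as an alternative. A sum does not restore unassigned reads, and the shares above were lower for the alpha pair, so the level of that balance is uncertain. The windows are single stretches whereas the reads were paired, so the shares do not give the part of the reads that was lost.

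**Figure D1:**
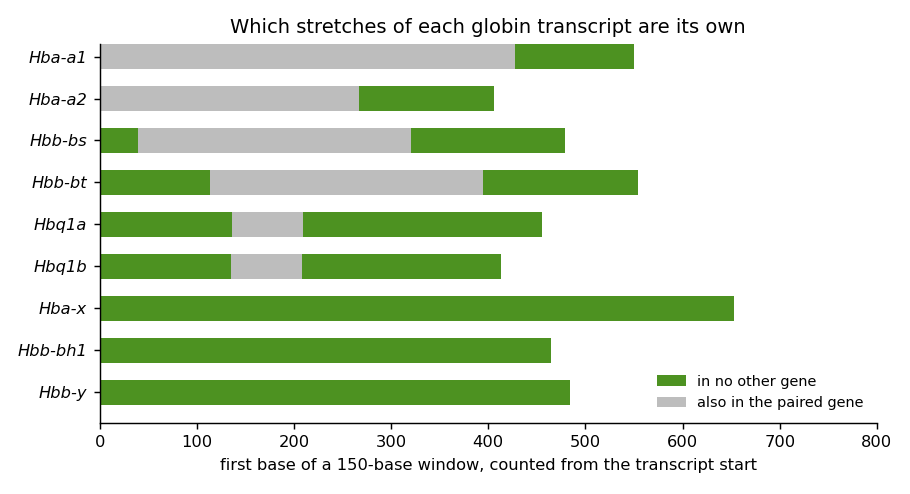
Each row is the main transcript of a globin gene, and each position along the horizontal axis is the first base of a 150-base window, counted in bases from the transcript start. Green marks windows found in no other gene's transcript or joined upstream sequence and gray marks windows also found in the paired gene, which cover most of *Hba-a1* and *Hba-a2* and leave *Hba-x*, *Hbb-bh1* and *Hbb-y* untouched.

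The upstream sequences of adult genes and of an embryonic gene of the beta cluster are shown as a description. Whether they bear on the levels in these libraries was not tested. They are from RefSeq (GRCm38.p6), 5′ to 3′ on the coding strand, and 8 of the 9 members had an entry. Over the 282 bases before the start codon, *Hba-a1* and *Hba-a2* did not differ at any base, so only *Hba-a2* is given, at chr11:32296282-32296491. The 210 bases before the start of *Hbb-y*, an embryonic beta-like gene, are at chr7:103853208-103853417. For the adult beta genes the 30 bases around the CCAAT motif are given, at chr7:103827992-103828021 (*Hbb-bs*) and chr7:103813987-103814016 (*Hbb-bt*). Capitals mark matches on either strand to the letters TATAA of a TATA box, the CCAAT box, the letters CACCC bound by erythroid factors of the KLF family, and the letters GATAA bound by GATA factors.
Hba-a2: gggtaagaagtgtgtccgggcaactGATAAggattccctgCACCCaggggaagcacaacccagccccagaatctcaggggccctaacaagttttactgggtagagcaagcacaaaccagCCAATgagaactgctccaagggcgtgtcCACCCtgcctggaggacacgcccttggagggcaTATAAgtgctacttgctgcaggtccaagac
Hbb-y: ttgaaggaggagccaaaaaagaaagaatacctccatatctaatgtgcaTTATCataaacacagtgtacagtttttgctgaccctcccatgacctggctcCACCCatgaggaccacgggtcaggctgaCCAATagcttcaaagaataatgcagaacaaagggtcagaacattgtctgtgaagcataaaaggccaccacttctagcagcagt
Hbb-bs: ccaCACCCtggtaagggCCAATctgctcac
Hbb-bt: gtaaCACCCtggcATTGGCCAATctgctca

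In the 250 bases before the start, each of the 4 adult genes held all 4 motifs, as did 0.97% of the 32851 promoters in the table. Taken singly, the CACCC motif was in 52.0% of promoters, the CCAAT box in 33.8%, the TATA box in 22.8% and the GATA motif in 22.6%. The TATA box lay at position -30 from the start in *Hba-a2*, at -29 in *Hbb-bs* and at -28 in *Hbb-bt*. *Hbb-y* held 3 of the motifs and no match to the letters TATAA, though the letters CATAAAA lie near the end of its printed stretch. *Hba-x* held 3 and no match to the letters CCAAT. Only exact letters were searched, so a missing match does not show that a gene lacks the box. *Hbq1b* held a CCAAT box and, on the opposite strand at -156, the TATA letters, whereas *Hbq1a* held only a CCAAT box of the 4. A match is a description of these letters and not a measured binding site.

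The libraries held 50977777 to 70571655 counts on genes, and 3 counts, taken as the limit that a count of 0 allows for counting error only, correspond to 0.0450 to 0.0630 CPM, the count of a gene relative to the size of its library. CPM here, these limits included, were scaled by the TMM method, which corrects library size for composition, with factors from 0.934 to 1.049. The whole-gene count of *Atrx* was 153, 166 and 171 CPM in Atrx-cKO replicates 1, 2 and 3 and 174, 166 and 165 in the controls, and does not single out the floxed exon or the cells with Cre. Control replicate 1 stood apart from the other controls in globin RNA, with 2.30 times their mean for adult alpha and 2.44 times for adult beta. A ratio of at least 2 between that library and the mean of the other controls was found in 505 genes, 2.447% of those tested. The fold changes of the tested globin genes, the shares within each adult pair and the alpha to beta ratio are therefore given with and without it. So are the medians of the heme, transcription factor, membrane and maturation lists, and globin RNA relative to the membrane genes. Other comparisons of the genotypes are given with it only. In bulk bone, fewer erythroid cells and less globin RNA per cell cannot be told apart.

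No globin gene passed the test between genotypes. Of the 9 genes, 6 had enough counts to be tested, and 0 of these were called, where 0.0145% of the 20636 genes tested were called. A call required an adjusted p under 0.05 in the quasi-likelihood test of edgeR, adjusted by Benjamini-Hochberg over all genes tested, and a log2 fold change of 1 or more in size. DESeq2 also called 0 of the 6, against 0.0975% of its tested genes. At an unadjusted p under 0.05 there were again 0 globin genes, against 3.64% of genes tested, and 0 of the 6 had groups that did not overlap, against 8.31% of genes tested (4.3% as higher and 4.01% as lower in Atrx-cKO). The log2 fold changes ran from 0.10 to 0.78 with a median of 0.20, where the median over all tested genes was 0.0050.

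*Hba-a1* (ENSMUSG00000069919, chr11:32283511-32284465), the more abundant adult alpha gene, had 1487, 1143 and 1212 CPM in Atrx-cKO replicates 1, 2 and 3. In the controls it had 1805, 708 and 902 CPM. The highest and the lowest values were both from controls, and the Atrx-cKO libraries lay between control replicate 1 and the other two. The mean was 1281 ± 182 CPM over the Atrx-cKO libraries (SD, n = 3) and 1138 ± 586 CPM over the controls (SD, n = 3). Between genotypes the log2 fold change was 0.17, with a standard error (SE) of 0.32 (95% interval -0.58 to 0.92, adjusted p = 0.994 in edgeR), so the interval reaches from 0.668-fold to 1.90-fold.

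*Hba-a2* (ENSMUSG00000069917, chr11:32296489-32297298), the other adult alpha gene, had 290, 219 and 233 CPM in Atrx-cKO and 392, 134 and 166 CPM in control libraries. The order of the libraries was the same as for *Hba-a1*. The log2 fold change was 0.10 (SE 0.37, 95% interval -0.76 to 0.97, adjusted p = 0.994 in edgeR). *Hba-a1* made up 83.7%, 83.9% and 83.9% of adult alpha counts in Atrx-cKO and 82.2%, 84.1% and 84.4% in control libraries. The mean share was 0.259 percentage points higher in Atrx-cKO, with pairwise differences between libraries from -0.770 to 1.76 (exact two-sided permutation test, p = 1.0, where the smallest p that 3 against 3 can give is 0.1). Without control replicate 1 the difference was -0.438 points (exact permutation p = 0.1, the smallest possible).

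*Hbb-bs* (ENSMUSG00000052305, chr7:103826534-103828096), the more abundant adult beta gene, had 1844, 1435 and 1647 CPM in Atrx-cKO libraries. In control libraries it had 2294, 863 and 1069 CPM. It was the most abundant globin gene in each library, ranking from the 16th to the 65th of all genes by CPM. The mean was 1642 ± 205 CPM over the Atrx-cKO libraries (SD, n = 3) and 1409 ± 774 CPM over the controls (SD, n = 3), and the log2 fold change was 0.22 (SE 0.34, 95% interval -0.57 to 1.01, adjusted p = 0.992 in edgeR).

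*Hbb-bt* (ENSMUSG00000073940, chr7:103812524-103813996), its neighbor in the cluster, had 357, 319 and 353 CPM in Atrx-cKO and 554, 183 and 217 CPM in control libraries. Again the Atrx-cKO values lay between control replicate 1 and the other controls. The log2 fold change was 0.11 (SE 0.38, 95% interval -0.78 to 1.0, adjusted p = 0.994 in edgeR). *Hbb-bt* gave 16.2%, 18.2% and 17.7% of adult beta counts in Atrx-cKO and 19.5%, 17.5% and 16.9% in control libraries. The mean share was lower in Atrx-cKO by a difference of -0.559 points (exact two-sided permutation p = 0.7, pairwise differences from -3.23 to 1.35). Without control replicate 1 it was 0.204 points and without Atrx-cKO replicate 1 it was 0.0119 points, on the other side of 0.

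**Figure D2:**
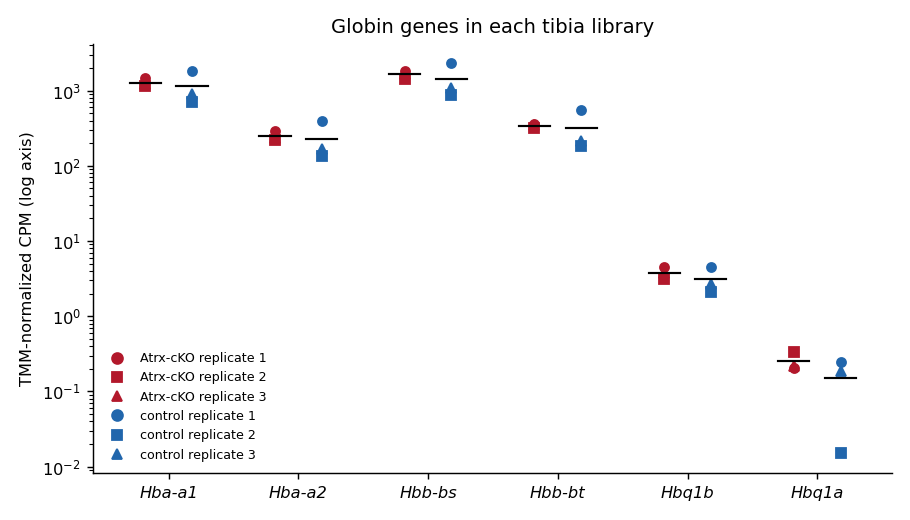
TMM-normalized CPM of the 6 tested globin genes in each library, on a log axis, with red symbols for Atrx-cKO, blue for control, a symbol shape for each replicate and a black bar at each group mean. For the 4 adult genes control replicate 1 is the highest and control replicate 2 the lowest of the 6 libraries.

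The balance of alpha to beta was steadier than either level. Adult alpha (*Hba-a1* plus *Hba-a2*) came to 1777, 1361 and 1445 CPM in Atrx-cKO and 2197, 841 and 1068 CPM in control libraries, a 2.61-fold range. Adult beta (*Hbb-bs* plus *Hbb-bt*) came to 2201, 1754 and 2000 CPM and to 2848, 1046 and 1286 CPM, a 2.72-fold range. Their ratio was 0.807, 0.776 and 0.722 in Atrx-cKO and 0.771, 0.804 and 0.831 in control libraries, a 1.15-fold range. The groups overlapped, since the lowest control value lay below the highest 2 Atrx-cKO values.

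The mean ratio over the Atrx-cKO libraries was 0.769 ± 0.0430 (SD, n = 3), beside 0.802 ± 0.0299 over the controls (SD, n = 3). On the log2 scale the difference was -0.062, with pairwise differences from -0.20 to 0.07 (exact two-sided permutation test, p = 0.5). Per kb of annotated exon the ratios were 0.741 ± 0.0420 and 0.773 ± 0.0279 (SD, n = 3). The log2 difference was -0.090 without control replicate 1 (exact permutation p = 0.3) and ran from -0.099 to -0.018 as each library was left out in turn. From single genes it was -0.068 for *Hba-a1* over *Hbb-bs* and -0.093 for *Hba-a2* over *Hbb-bs* (exact permutation p = 0.3 for each). The exact test of 3 against 3 can give no p below 0.1, so it could not pass 0.05. Its p does not show that the ratio was the same. The level of the ratio also depends on reads lost from near-identical copies, which may differ between alpha and beta.

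**Figure D3:**
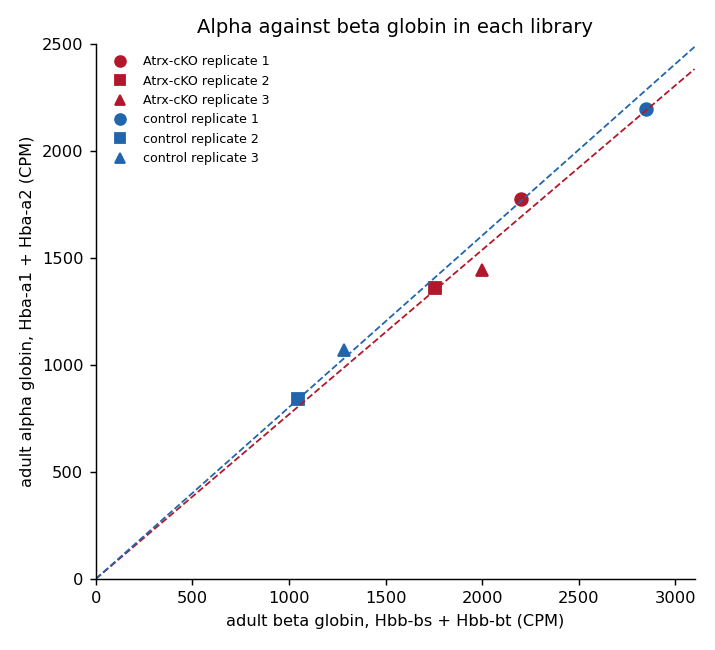
Adult alpha globin CPM against adult beta globin CPM in each library, with dashed lines through 0 at the mean alpha to beta ratio of Atrx-cKO (red, 0.769) and control (blue, 0.802). The libraries spread along the lines, from 1046 to 2848 CPM of beta, far more than they spread across them.

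The minor and embryonic genes contributed little, and the 4 adult genes took 99.88% to 99.91% of the counts on globin genes. *Hbq1b* (ENSMUSG00000073063), a theta-like gene of the alpha cluster, had 264, 176 and 222 counts in Atrx-cKO and 258, 142 and 126 in control libraries. Its log2 fold change was 0.29 (SE 0.30, 95% interval -0.42 to 1.0, adjusted p = 0.992 in edgeR). *Hbq1a* (ENSMUSG00000020295), the other theta-like gene, had 12, 19 and 13 counts in Atrx-cKO and 14, 1 and 9 in control libraries. Its log2 fold change of 0.78 had a 95% interval from -1.01 to 2.57 (adjusted p = 0.992 in edgeR) and rests in part on the single count of control replicate 2, without which it was 0.21.

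*Hba-x* (ENSMUSG00000055609), the embryonic zeta-type gene at the start of the alpha cluster, had 4, 5 and 0 counts in Atrx-cKO and 1, 0 and 1 in control libraries. *Hbb-y* (ENSMUSG00000052187), the embryonic beta-like gene whose upstream sequence is given above, had 0, 3 and 0 counts in Atrx-cKO and 0, 4 and 2 in control libraries. *Hbb-bh1* (ENSMUSG00000052217), the other embryonic beta-like gene, had 0 counts in all 6 libraries, which allows up to 0.0630 CPM in the shallowest. These 3 genes were below the expression filter, and without the filter *Hba-x* and *Hbb-y*, with totals of 11 and 9 counts, gave adjusted p = 0.849 and 0.954 in edgeR. The adult pattern was thus seen in both genotypes, with embryonic transcripts at or near the limit of detection.

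Compared per kb of annotated exon, the order of levels was *Hbb-bs*, *Hba-a1*, *Hbb-bt*, *Hba-a2*, *Hbq1b* and *Hbq1a* in 6 of 6 libraries. The gaps between neighbors differed in size. *Hbb-bs* was 1.25 to 1.44 times *Hba-a1* per kb, and *Hbb-bt* was 1.17 to 1.44 times *Hba-a2*. These gaps were smaller than the spread of any of the genes between libraries and held only within a library. *Hba-a1* was 2.82 to 3.61 times *Hbb-bt*, and *Hba-a2* was 67.2 to 94.2 times *Hbq1b*, steps that no library bridged. The order within the adult genes depends on the assignment of reads between near-identical copies.

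Of the alternatives run, leaving out control replicate 1 moved the fold change of each adult globin gene the most. The log2 fold change then became 0.67 for *Hba-a1* (adjusted p = 0.231), 0.72 for *Hba-a2* (adjusted p = 0.195), 0.77 for *Hbb-bs* (adjusted p = 0.150) and 0.78 for *Hbb-bt* (adjusted p = 0.0967), each from edgeR. *Hbq1b* was then at 0.67 and *Hbq1a* at 1.39. Of the 6 genes, 5 had an unadjusted p under 0.05 as higher in Atrx-cKO, against 4.13% of the 21349 genes tested, and 0 were called, against 0.00937%. This library was singled out for the highest globin RNA among the controls, so leaving it out had to raise these fold changes, and nothing is read from that count or from the other values without it. Leaving out control replicate 2 instead gave -0.086 for *Hba-a1*, -0.18 for *Hba-a2*, -0.041 for *Hbb-bs* and -0.17 for *Hbb-bt*. Without control replicate 3 it was -0.10 for *Hba-a2* and -0.12 for *Hbb-bt*, and without Atrx-cKO replicate 1 it was -0.031 for *Hba-a2*. The sign of the adult fold changes thus depended on which libraries were included.

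**Figure D4:**
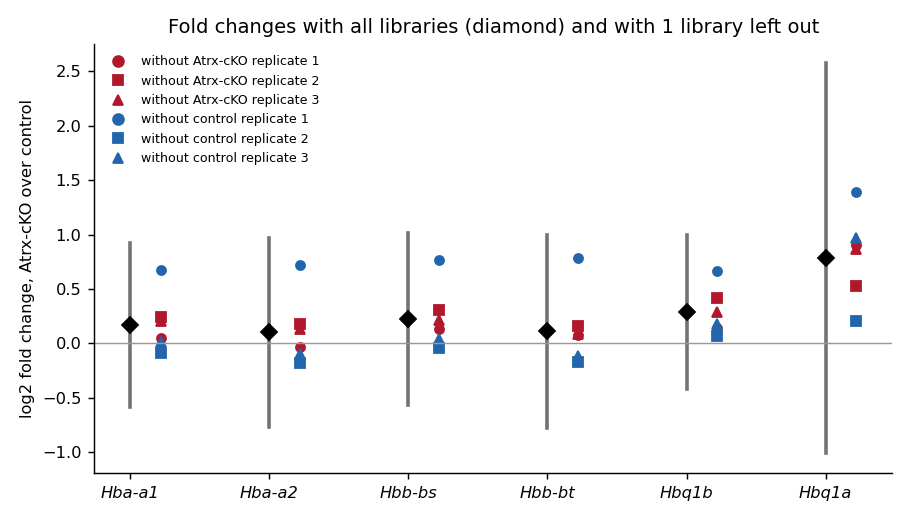
Log2 fold change of each tested globin gene, Atrx-cKO over control, from edgeR. Black diamonds with gray bars are the estimate and 95% interval from all 6 libraries, and the smaller symbols are estimates with 1 library left out. The blue circles, without control replicate 1, lie from 0.67 to 1.39, above the other estimates of each gene.

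Other genes of the red cell did not pass the test either. Of 8 heme synthesis enzymes, 14 erythroid transcription factors, 12 red cell membrane and late erythroid genes and 13 iron and maturation genes, each tested, 0 passed in either direction (edgeR, against 0.0145% of all genes tested), and 0 had an unadjusted p under 0.05, against 3.64% of all genes. Their median log2 fold changes were -0.031, -0.015, 0.015 and 0.035, beside 0.0050 over all genes. Without control replicate 1 these medians were 0.17, 0.25, 0.36 and 0.32, with 0 called against 0.00937% of all genes. The summed level of the red cell membrane list was 1815, 1500 and 1856 CPM in Atrx-cKO and 2423, 1257 and 1620 CPM in control libraries, with control replicate 1 again the highest and control replicate 2 the lowest.

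Among the heme enzymes, *Alas2*, the erythroid form of the rate-limiting enzyme, had 216, 159 and 199 CPM in Atrx-cKO and 288, 107 and 134 CPM in control libraries, the same order of libraries as *Hba-a1*. Its log2 fold change was 0.12 (SE 0.34, adjusted p = 0.994 in edgeR). *Fech*, which inserts iron into the ring, was at -0.036, and *Cpox*, an earlier enzyme of the pathway, was at -0.12 (both adjusted p of 0.992 or more in edgeR).

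Of the transcription factors, *Klf1*, which binds CACCC motifs in erythroid promoters, had a log2 fold change of -0.22 (SE 0.30, adjusted p = 0.992 in edgeR). *Sox6*, a repressor of embryonic globin genes, was at -0.31 (SE 0.26), *Ldb1*, a partner that joins distant enhancers to promoters, at -0.041, and *Ikzf1*, a zinc finger factor of lymphoid and erythroid cells, at 0.16. None of these 4 passed. Of the membrane genes, *Slc4a1*, the band 3 anion exchanger, was at 0.012, *Aqp1*, the water channel, at -0.17 and *Ank1*, the ankyrin that ties band 3 to the skeleton, at -0.23. Of the iron and maturation genes, *Slc25a37*, the mitochondrial iron importer, was at 0.016, *Car2*, a carbonic anhydrase, at -0.091, *Tfrc*, the transferrin receptor, at -0.11 and *Tspo2*, an erythroid membrane protein, at 0.20.

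Set against the red cell membrane genes of the same library, globin RNA was somewhat higher in Atrx-cKO means, but not beyond the spread. The log2 level of adult alpha minus the mean log2 level of the 12 membrane genes was 3.98, 3.85 and 3.64 in Atrx-cKO and 3.85, 3.43 and 3.45 in control libraries. The groups overlapped through control replicate 1, and the difference of means was 0.246 (exact two-sided permutation p = 0.3). For adult beta the values were 4.29, 4.22 and 4.11 against 4.23, 3.75 and 3.72, a difference of 0.309 (exact two-sided permutation p = 0.3). Without control replicate 1 the differences were 0.383 for alpha (exact permutation p = 0.2) and 0.473 for beta (exact permutation p = 0.1, the smallest possible). That library had the highest control value for both, so leaving it out had to raise these differences, and nothing is read from them.

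Genes whose products act beside hemoglobin gave 0 calls among 10 tested (edgeR, against 0.0145% of all genes tested), with a median log2 fold change of 0.073. *Gpx1*, a glutathione peroxidase, had 425 ± 50.1 CPM over the Atrx-cKO libraries and 401 ± 80.2 CPM over the controls (SD, n = 3). *Hp*, whose product haptoglobin binds free hemoglobin, had 540, 324 and 278 CPM in Atrx-cKO and 323, 315 and 217 CPM in control libraries, a log2 fold change of 0.42 (SE 0.26, adjusted p = 0.992 in edgeR), with Atrx-cKO replicate 1 the highest. *Ube2o*, a ubiquitin enzyme that clears unassembled alpha globin and other proteins as red cells mature, was at 0.13 (SE 0.18).

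**Figure D5:**
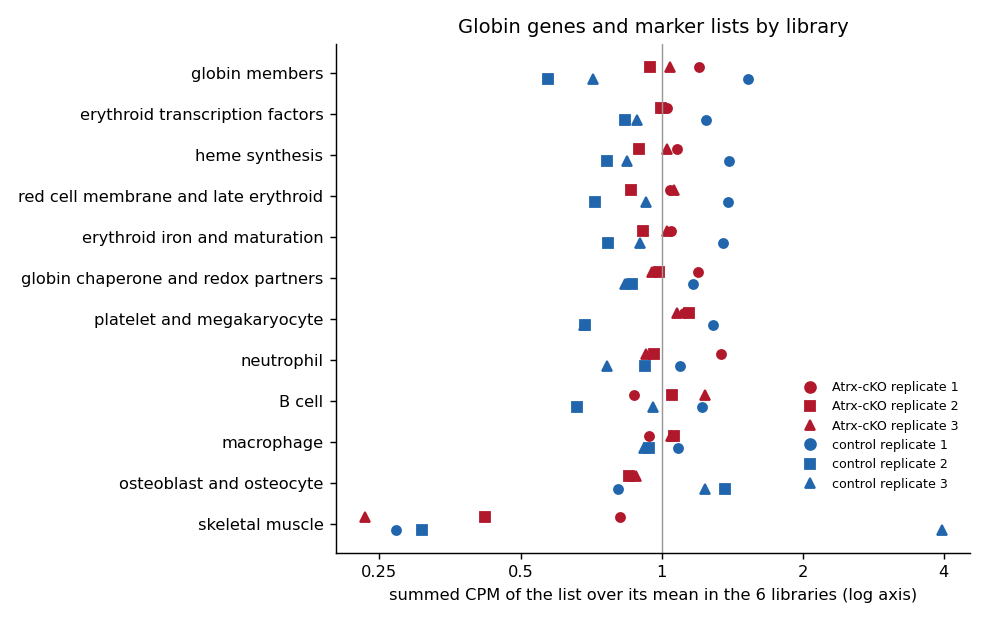
Summed CPM of the globin genes and of 11 marker lists in each library, divided by the mean of the 6 libraries, on a log axis, with red for Atrx-cKO and blue for control. Control replicate 1 is the highest library for the globin genes, for 4 erythroid lists, for platelet genes and, by a small margin, for macrophage genes, and the lowest for the osteoblast sum, while control replicate 3 stands far to the right for skeletal muscle.

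The genes that flank the alpha cluster were compared as its neighbors on the chromosome, out to 851 kb. Of 12 neighbors tested, 0 were called (edgeR, against 0.0145%), and their median log2 fold change was 0.00074. *Nprl3*, whose introns hold distal enhancers of the alpha genes, lay 8.69 kb away and had 36.4, 37.1 and 36.8 CPM in Atrx-cKO and 31.8, 32.6 and 37.8 in control libraries, a log2 fold change of 0.11 (SE 0.090, adjusted p = 0.992 in edgeR). Its levels did not follow those of the globins, since it was lowest in control replicate 1. *Mpg*, a DNA glycosylase gene 43.7 kb away that lies within the span of *Nprl3* on the opposite strand, so that reads of the pair may not be told apart, was at -0.0047, *Rhbdf1*, a rhomboid family gene, at -0.080, *Snrnp25*, a spliceosome gene, at 0.0010 and *Il9r*, the interleukin receptor gene, at 0.13.

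On the other side, *Sh3pxd2b*, an adaptor protein gene 46.9 kb away, had 208, 234 and 268 CPM in Atrx-cKO and 259, 361 and 351 in control libraries. Its log2 fold change was -0.45 (SE 0.15, unadjusted p = 0.0195 and adjusted p = 0.992 in edgeR). Farther out, *Ubtd2* was at 0.00047, *Efcab9* at -0.24, *Stk10*, a kinase gene, at 0.070 and *Fbxw11*, an F-box protein gene, at 0.052. *Fgf18*, a growth factor gene 817 kb away, was at -1.73 (unadjusted p = 0.0221, adjusted p = 0.992) with a mean of 0.314 CPM over all libraries, and *Npm1*, the nucleophosmin gene 851 kb away, at 0.33 (adjusted p = 0.992). These were the 2 of the 12 whose groups did not overlap, against 8.31% of all genes, and *Sh3pxd2b* and *Fgf18* were the 2 with an unadjusted p under 0.05, both lower, against 2.05% of all genes in that direction. The beta cluster had 19 other genes within 100 kb, 13 of them olfactory receptor genes, and none exceeded 2 counts in any library.

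Globins encoded outside the clusters did not pass either, with 0 of 3 called (edgeR, against 0.0145%). *Mb*, the oxygen store of muscle, had 76.7, 15.4 and 9.76 CPM in Atrx-cKO and 58.9, 45.5 and 30.2 in control libraries, a log2 fold change of -0.40 (SE 0.70). *Cygb*, a globin of fibroblasts, had 18.4 to 20.6 CPM in the controls, inside the range of the Atrx-cKO libraries, and a log2 fold change of 0.044 (SE 0.16). *Ngb*, the neuronal globin, was at most 0.462 CPM in any library, with a log2 fold change of -0.84 (SE 0.65, adjusted p = 0.992 in edgeR).

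The pattern over libraries was compared with that of all other tested genes by Pearson's correlation of log2 CPM over the 6 libraries, as a description. Adult alpha and adult beta correlated at r = 0.992. The genes most like adult alpha included *Apex2* (r = 0.994), *March3* (r = 0.994), *Gm10244* and *Slc43a3*, and those most like adult beta were *Apex2* (r = 0.996), *Tti1*, *Lrrc32*, *March3* and *Msh6*. *Apex2* had 45.0, 38.5 and 41.4 CPM in Atrx-cKO and 56.8, 27.1 and 31.4 in control libraries. On chromosome X it overlaps *Alas2* on the opposite strand, and since the strand setting of the counting is not given in the sources used here, reads from the 2 genes cannot be told apart. *Alas2* itself correlated at r = 0.987 with alpha and r = 0.991 with beta. Each correlation rests on only 6 points, and control replicate 1 is the extreme point for the globins. A correlation above 0.9 with adult alpha was reached by 423 genes and with adult beta by 471.

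Markers of other cell types also differed between libraries, and their part in the globin values was not tested. Of the 58 genes in 6 other lists, 57 were tested and 0 called (edgeR, against 0.0145%). The 8 platelet and megakaryocyte genes, which share a progenitor with the red cell, summed to 1559, 1599 and 1508 CPM in Atrx-cKO and 1799, 959 and 953 in control libraries, so control replicate 1 again lay with or above the Atrx-cKO libraries. The 10 osteoblast and osteocyte genes, which mark the labelled tissue, summed to 111000 to 121100 CPM in Atrx-cKO and control replicate 1 and to 169400 to 187400 in the other controls. That sum is mostly the collagen genes *Col1a1* and *Col1a2* and does not by itself speak for each gene. Of the other genes of the list, all but *Sost* were also lower in control replicate 1 than the mean of the other controls. Their ratios ran from 0.617 for *Alpl* to 0.781 for *Dmp1*. *Sost*, an osteocyte gene named after its values were seen, had 95.6, 144 and 68.8 CPM in Atrx-cKO and 240 CPM in control replicate 1, against 63.8 and 64.4 in the other controls. The 10 neutrophil genes summed to 9426 to 13600 CPM in Atrx-cKO and 7769 to 11130 in control libraries, the 10 B cell genes to 277 to 393 and 209 to 386, and the 8 macrophage genes to 1192 to 1347 and 1163 to 1370. The 12 skeletal muscle genes summed to 875 to 3061 CPM in 5 libraries and to 14870 in control replicate 3. As a share of all counts on genes, the globin genes took 0.402%, 0.323% and 0.357% in Atrx-cKO and 0.530%, 0.178% and 0.220% in control libraries.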

How the data were processed

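Tibia RNA-Seq libraries of 3 Atrx-cKO and 3 control mice, grouped by the sample labels, were used. For each library the authors deposited the raw counts of reads on genes, not normalized, from 150-bp paired-end reads. Per the submitters' processing notes the build was GRCm38. The aligner, counter and strand setting are not given in the sources used here. The 5 summary entries (reads on no feature, 51.6% to 52.4%, and reads ambiguous or not unique) were kept out of library sizes. Of 55401 identifiers, 55141 matched GENCODE M21. Genes were tested with edgeR 4.0.16 (filterByExpr, TMM, genotype only, quasi-likelihood) over 20636 genes with Benjamini-Hochberg adjustment, and with DESeq2 1.42.0 as an alternative, both also tested on simulated data. Within-library ratios were compared by exact two-sided permutation tests, with 0.5 CPM added for list means. The members, gene lists and tests were chosen with earlier results of these data known. Genes were named by rule: the members, all neighbors and other globins, from each erythroid list the 2 most abundant and the 2 with the largest fold change, and the 5 most correlated with adult alpha or beta, of which 1 is not reported here. *Atrx*, *Col1a1* and the cell type lists stand outside it. Counts of same-genotype libraries differed beyond sampling noise (chi-square over its degrees of freedom 17.1 to 149.1), and each was taken as a replicate. Sequences came from RefSeq and GENCODE M21. Coding sequences were aligned with Biopython 1.88.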

Additional observations from a re-analysis of the deposited data

How the results depend on the processing

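The globin genes gave 0 calls under each of the alternatives run: RLE, upper quartile and library-size scaling, scaling without the globin genes, no filter, at least 10 counts in every library, DESeq2, edgeR's glmTreat against a 2-fold change, the replicate block and each library left out. No gene list gave a call either. In several of these fits few or no genes were called anywhere. Over all genes tested, 0 were called with the replicate block. Dropping control replicate 2 also gave 0, as did dropping either Atrx-cKO replicate 1 or replicate 2. The filter of at least 10 counts and glmTreat each gave 1 called gene. The absence of calls in those fits therefore says little about the globin genes or the lists. As libraries were left out in turn, the log2 fold change ran from -0.086 to 0.67 for *Hba-a1*, from -0.18 to 0.72 for *Hba-a2*, from -0.041 to 0.77 for *Hbb-bs* and from -0.17 to 0.78 for *Hbb-bt*. The share of *Hba-a1* in adult alpha differed by -0.438 to 0.688 points and that of *Hbb-bt* in adult beta by -1.09 to 0.204 points. The causes were not tested. Same-numbered libraries did not deviate together (correlations -0.0031, 0.108 and -0.0996), and the main fit did not pair them. These correlations cannot show that same-numbered mice shared no litter or batch. With the replicate block the log2 fold change was 0.28 for *Hba-a1* and 0.35 for *Hbb-bs*, the log2 alpha to beta difference was -0.062 (exact sign-flip test, p = 0.75, where 0.25 is the smallest possible), and the number of all genes called went from 3 to 0. Over all genes DESeq2 called 10 higher and 13 lower. The comparison of *Ahsp* with alpha was not run, since the gene is not analysed here. Adult genes had at least 7923 counts in each library, so the spread between 3 libraries rather than counting error limits their comparison, whereas *Hbq1a*, *Hba-x* and *Hbb-y* are limited by depth.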
